A study of Rattus norvegicus with 18 samples.

Results

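Dip peaks are H3K4me3 peaks at which all 3 libraries collected 30 min after cAMP washout lay below all 6 libraries of untreated cells and of cells fixed 3.5 h after it. They were selected on these measured values: peaks on chromosomes 1 to 20 with a mean count of 50 or more over the 9 H3K4me3 libraries, whose highest 30 min level was below the lowest of the other 6, in CPM, the count scaled to the library's reads in peaks. The rule found 1639 peaks among 15492 with that position and count, which is 10.6%, and among 16364 peaks in the whole study. Because the rule used the 30 min levels, the dips themselves are described here without a test.

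The study asked how the trimethyl mark on lysine 4 of histone H3 behaves when a short cAMP pulse is given to Schwann cells and then removed. Primary Schwann cells, the myelin-forming glia of peripheral nerve, came from sciatic nerves of adult Fisher rats and were used at a low passage number. In the treated groups 8-CPT-cAMP, a cell-permeable analogue, was given for 30 min and washed out, and cells were fixed 30 min or 3.5 h later; one label field gives the dose as 100 μM and another as 50 μM. Control cells carried no treatment in the labels, and each of the 3 conditions had 3 H3K4me3 ChIP libraries and 3 libraries of unprecipitated input DNA. The peaks carry no gene names in the deposited tables, so the Schwann cell identity was not checked against marker genes.

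H3K4me3 marks the nucleosomes that flank the start sites of active genes, most strongly at CpG islands. It is written by the KMT2 and SETD1 methyltransferases and removed by the KDM5 demethylases, whose activity needs Fe(II). cAMP activates protein kinase A, which phosphorylates CREB, a factor that binds the palindrome TGACGTCA or its core TGACG in promoters.

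Gene names were available for 25 of the dip peaks. The study lists 31 genes with a marked change between control and 30 min or between 30 min and 3.5 h, and the mean reads per kb of each was matched to a single peak (difference of at most 0.106%, next closest peak at least 11.9 times further away). All 28 of these genes that have an entry in RefSeq for the GRCr8 build lie on the chromosome of their matched peak, which the match did not use. Of the 29 matched peaks, 25 were dip peaks, and they carry 27 gene names. The study chose these genes for their change in these same libraries, so their dips are not independent evidence of a change. The match was made by value and not by position, and the place of a peak relative to its gene was not examined.

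The 250 bases upstream of the annotated start are shown for some of the named genes. The sequences are from RefSeq in the GRCr8 build, 5′ to 3′ on the strand of the gene, and need not represent dip peaks in general. Samd1, Zfp692 and Hist1h3b stood at the 3 named dip peaks with the widest separation for which RefSeq gives a promoter. Ptges3 stood at the strongest of the 10 most separated peaks, Ptp4a1 had the most CpG dinucleotides, and Fpgt shares its peak with Lrriq3 on the other strand. Capitals mark TGACG on either strand, including any copy within TGACGTCA.
Samd1, chr19:41059196-41059445, minus strand: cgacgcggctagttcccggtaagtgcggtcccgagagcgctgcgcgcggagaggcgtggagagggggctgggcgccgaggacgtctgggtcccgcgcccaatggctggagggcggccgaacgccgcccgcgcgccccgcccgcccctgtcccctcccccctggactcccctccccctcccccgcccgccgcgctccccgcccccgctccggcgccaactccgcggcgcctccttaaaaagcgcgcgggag
Zfp692, chr10:42988696-42988945, plus strand: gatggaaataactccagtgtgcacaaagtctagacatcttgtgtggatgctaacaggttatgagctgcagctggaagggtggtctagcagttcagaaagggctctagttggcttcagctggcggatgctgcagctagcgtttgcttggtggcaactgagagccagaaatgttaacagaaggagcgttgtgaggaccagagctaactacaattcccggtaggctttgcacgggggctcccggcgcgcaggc
Hist1h3b, chr17:47418946-47419195, plus strand: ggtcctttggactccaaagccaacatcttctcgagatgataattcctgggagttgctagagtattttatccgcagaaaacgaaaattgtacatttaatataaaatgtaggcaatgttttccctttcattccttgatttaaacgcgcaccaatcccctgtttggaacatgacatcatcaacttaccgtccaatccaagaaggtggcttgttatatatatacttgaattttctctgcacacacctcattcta
Ptges3, chr7:1075059-1075308, plus strand: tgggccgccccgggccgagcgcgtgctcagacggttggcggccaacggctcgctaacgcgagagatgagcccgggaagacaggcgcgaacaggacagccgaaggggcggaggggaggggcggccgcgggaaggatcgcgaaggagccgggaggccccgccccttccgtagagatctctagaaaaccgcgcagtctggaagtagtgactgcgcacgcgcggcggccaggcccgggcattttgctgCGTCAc
Ptp4a1, chr9:40718177-40718426, minus strand: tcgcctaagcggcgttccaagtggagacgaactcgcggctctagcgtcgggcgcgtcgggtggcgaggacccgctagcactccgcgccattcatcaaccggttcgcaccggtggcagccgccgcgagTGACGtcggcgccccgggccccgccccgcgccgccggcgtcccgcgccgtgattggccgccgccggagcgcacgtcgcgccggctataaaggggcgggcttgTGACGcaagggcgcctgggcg
Fpgt, chr2:246778849-246779098, minus strand: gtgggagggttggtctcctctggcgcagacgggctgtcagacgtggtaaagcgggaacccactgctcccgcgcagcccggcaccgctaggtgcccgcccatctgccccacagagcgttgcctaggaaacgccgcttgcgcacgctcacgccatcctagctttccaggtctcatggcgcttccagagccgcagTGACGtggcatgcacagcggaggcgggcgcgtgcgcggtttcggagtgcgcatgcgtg

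The windows of Fpgt and Lrriq3 overlap by 134 bases, and the TGACG in each is the same site, at chr2:246778902-246778906 in GRCr8. Over the 18 genes at dip peaks with a promoter in the table, 0 held TGACGTCA, and 1.70% of the 27457 promoter windows of the same length in the rat table did. TGACG on either strand was in 5 of the 18 (27.8%) and in 19.0% of all windows. A CpG observed-to-expected ratio above 0.6 was found in 15 of the 18 (83.3%) and in 35.4% of all windows. The Samd1 window held 39 CpG dinucleotides and the Hist1h3b window 6. These are descriptions of letters in a window, and H3K4me3 peaks in general were not placed on this build.

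The 30 min libraries held 15350058 to 17160987 reads in peaks, against 13762905 to 14484777 in control and 14235305 to 15499672 at 3.5 h. Of their reads, 20.9% to 24.9% lay outside peaks, whereas control libraries held 17.0% to 20.3% and 3.5 h libraries 11.5% to 20.9%. The part of depth and of reads outside peaks in the dips was not tested. Control replicates differed by less than sampling noise (a chi-square of 0.664 per degree of freedom for replicates 1 and 2, and 0.906 and 0.917 for the other pairs), but held different numbers of reads outside peaks (2817646 in replicate 1, 3683652 in replicate 2), and were kept as 3 libraries. The 30 min pairs gave 1.01 to 1.69 and the 3.5 h pairs 1.63 to 4.20. Nothing in the labels says that replicates came from separate animals or cultures, so p-values measure only the spread between these libraries, which may be technical.

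The dips were shallow. The median dip peak was 6.36% lower at 30 min than the mean of the other 6 libraries, and the deepest was 42.6% lower. The level was more than 5% lower at 1247 dip peaks, more than 10% lower at 130 and more than 20% lower at 9. Relative to the mean of the other 6 libraries, the median over dip peaks was -0.11 on the log2 scale in 30 min replicate 1, -0.08 in replicate 2 and -0.09 in replicate 3. The 30 min libraries held 2571189 to 2808202 reads in dip peaks and the others 2407561 to 2705942, counts that are not scaled for depth. The rule measures share: dip peaks took 16.4%, 16.8% and 16.6% of the reads in peaks at 30 min. The shares were 17.5%, 17.4% and 17.4% in control, and 17.5%, 17.9% and 18.4% at 3.5 h.

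**Figure D1:**
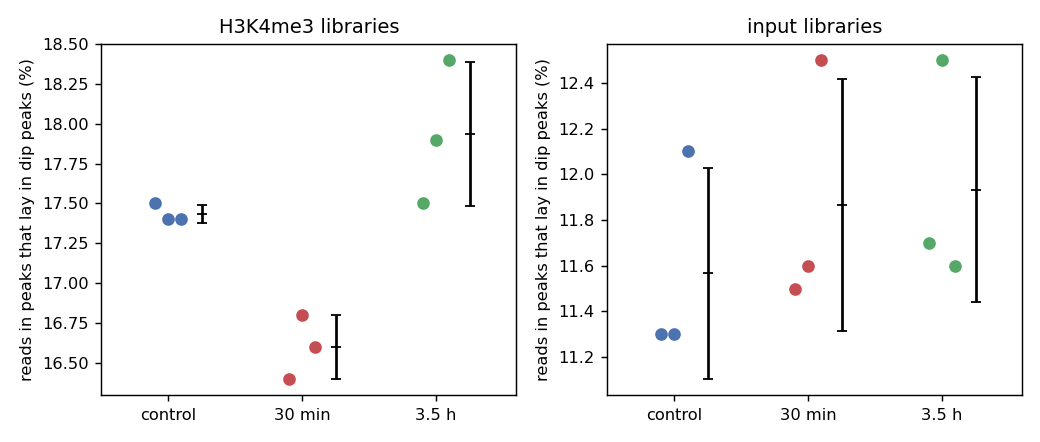
Share of the reads in peaks that lay in the 1639 dip peaks, in percent, for each H3K4me3 library (left) and each input library (right), with the mean and SD of 3 libraries per condition in black. The vertical axes do not start at 0. The H3K4me3 share was 16.4% to 16.8% at 30 min and 17.4% or more elsewhere, which the rule selects for, and the input shares overlapped.

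The peak with the widest separation was Peak_1958, at chr6:103376188-103376909 in the Rnor_6.0 build of the files (722 bp). Its levels were 13.6, 13.6 and 12.6 CPM in control, 8.27, 6.97 and 6.88 CPM at 30 min, and 13.0, 10.9 and 13.3 CPM at 3.5 h. The lowest of the 6 other libraries lay 0.40 above the highest 30 min library on the log2 scale, a distance called the gap below. Peak_6036 (chr5:62073441-62073968) had levels of 14.5, 14.6 and 14.6 CPM in control, 12.6, 11.6 and 11.7 CPM at 30 min, and 17.0, 17.9 and 16.9 CPM at 3.5 h. Both were narrow and weak, and had no gene name here. The other 8 of the 10 dip peaks with the widest gap all had one.

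Of the named peaks, 3 lay close together on chromosome 17, a pair of them matched to histone genes. LOC684762 was matched to Peak_9936 (chr17:43806917-43807660), with 25.9, 28.0 and 25.6 CPM in control, 19.4 to 20.3 CPM at 30 min, and 25.3, 29.0 and 26.2 CPM at 3.5 h. Its 30 min mean was 25.4% below the mean of the other libraries, with no overlap. Hist1h3b, a gene for a replication-dependent histone H3, had 33.1, 33.4 and 33.1 CPM in control, 28.8, 28.0 and 28.1 CPM at 30 min, and 33.2, 34.4 and 32.7 CPM at 3.5 h, so the control and 3.5 h levels overlapped and the 30 min level stood 15.0% below. Hist1h1d, a linker histone gene, had 63.1, 63.4 and 62.6 CPM in control, 54.7, 53.5 and 55.2 CPM at 30 min, and 62.1, 63.4 and 57.2 CPM at 3.5 h. Its gap of 0.05 rested on 3.5 h replicate 3, the only library between the remaining 5 and the 30 min levels. The RefSeq table gives that older symbol to more than one gene, so its identity is uncertain, and histone genes are near-identical copies whose reads may be shared or lost when multi-mapped reads are removed. The span of 1.11 Mb from the Hist1h1d peak to the Hist1h3b peak held 48 peaks of the required count, of which 8 were dip peaks (16.7%), and the remainder of chromosome 17 held 71 of 506 (14.0%). The span was chosen after these values were seen. All 48 peaks together had a median of 0.08 on the log2 scale at 30 min relative to the other libraries, and 22 of them were below 0, so the dip was not shared by all peaks of this span.

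Genes of chromatin and transcription followed. Samd1, a reader of unmethylated CpG islands, was matched to Peak_10382 (chr19:25118477-25119535), with 19.8, 21.9 and 19.6 CPM in control, 16.1, 16.3 and 17.1 CPM at 30 min, and 22.0, 20.2 and 21.8 CPM at 3.5 h. The 30 min mean was 21.0% lower. It was 1 of 3 dip peaks within 8.81 kb, the only such group in which neighbours lay within 5 kb. Peak_4499 (chr19:25120637-25122004) was 8.16% lower at 30 min and Peak_4500 (chr19:25126171-25127288) 11.9% lower. Zfp692, a zinc finger repressor, had 77.8, 78.1 and 78.2 CPM in control, 63.3, 65.3 and 65.1 CPM at 30 min, and 75.4, 76.1 and 78.4 CPM at 3.5 h at Peak_8008 (chr10:43744317-43746025). The replicates of Zfp692 spread little (control 78.0 ± 0.184 CPM, 30 min 64.6 ± 1.10 and 3.5 h 76.6 ± 1.56; SD, n = 3). Tshz3, a teashirt-family transcription factor, was 13.8% lower at 30 min (48.5 ± 0.662 CPM, against 55.7 ± 0.866 in control and 56.9 ± 2.99 at 3.5 h; SD, n = 3). Glis2, a Krüppel-like zinc finger factor, was 12.6% lower, and Dlx2, a homeobox factor, 10.8% lower.

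Other named peaks belonged to genes of metabolism, mitochondria and protein handling. Ptges3, the HSP90 co-chaperone p23, had 140, 142 and 141 CPM in control, 120, 125 and 124 CPM at 30 min, and 141, 146 and 150 CPM at 3.5 h at Peak_6649 (chr7:2478499-2480868). Slc25a23, a mitochondrial ATP-Mg/phosphate carrier, had 29.1, 29.2 and 29.8 CPM in control, 24.5, 24.1 and 27.5 CPM at 30 min, and 33.7, 32.3 and 37.0 CPM at 3.5 h. Replicate 3 at 30 min stood nearer to control than replicates 1 and 2, so that its gap was 0.08 although its mean was 20.2% lower. Pdss1, which makes the side chain of coenzyme Q, spread more at 30 min, with 26.5, 24.4 and 22.5 CPM, against 30.0, 30.5 and 30.1 CPM in control and 29.2, 28.0 and 30.2 CPM at 3.5 h. Vdac3, a channel of the outer mitochondrial membrane, was 15.3% lower, Gorasp2, a Golgi stacking protein, 13.0% lower, and Fpgt, a fucose-activating enzyme that shares its peak with Lrriq3, 14.4% lower.

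Genes of signalling, adhesion and protein turnover completed the named peaks. Stk11ip, which binds the kinase LKB1, had 51.4, 53.7 and 52.8 CPM in control, 44.9, 42.1 and 43.9 CPM at 30 min, and 52.6, 49.7 and 49.9 CPM at 3.5 h. Gmcl1, a BTB-domain protein, was 19.1% lower, Trim68, a ubiquitin ligase, 15.1% lower, Ptp4a1, a phosphatase, 12.4% lower, and Lmln, a metallopeptidase, 13.4% lower. Cd99, a surface glycoprotein that shares its peak with AABR07045680.1, was 13.6% lower, Lrrc4, a synaptic adhesion protein, 12.8% lower, Kank2, a regulator of the actin cytoskeleton, 12.1% lower, and Tmem185b, a membrane protein, 13.2% lower. Ctgf, the matricellular growth factor now named Ccn2, was the least separated: it had 154, 158 and 137 CPM in control, 137, 132 and 128 CPM at 30 min, and 151, 137 and 138 CPM at 3.5 h, with a gap of 0.002. For Ctgf, 1 control library and 2 libraries at 3.5 h stood next to the highest 30 min library. Over the 25 named peaks the dip ranged from 9.48% to 25.4%, with a median of 13.8%.

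**Figure D2:**
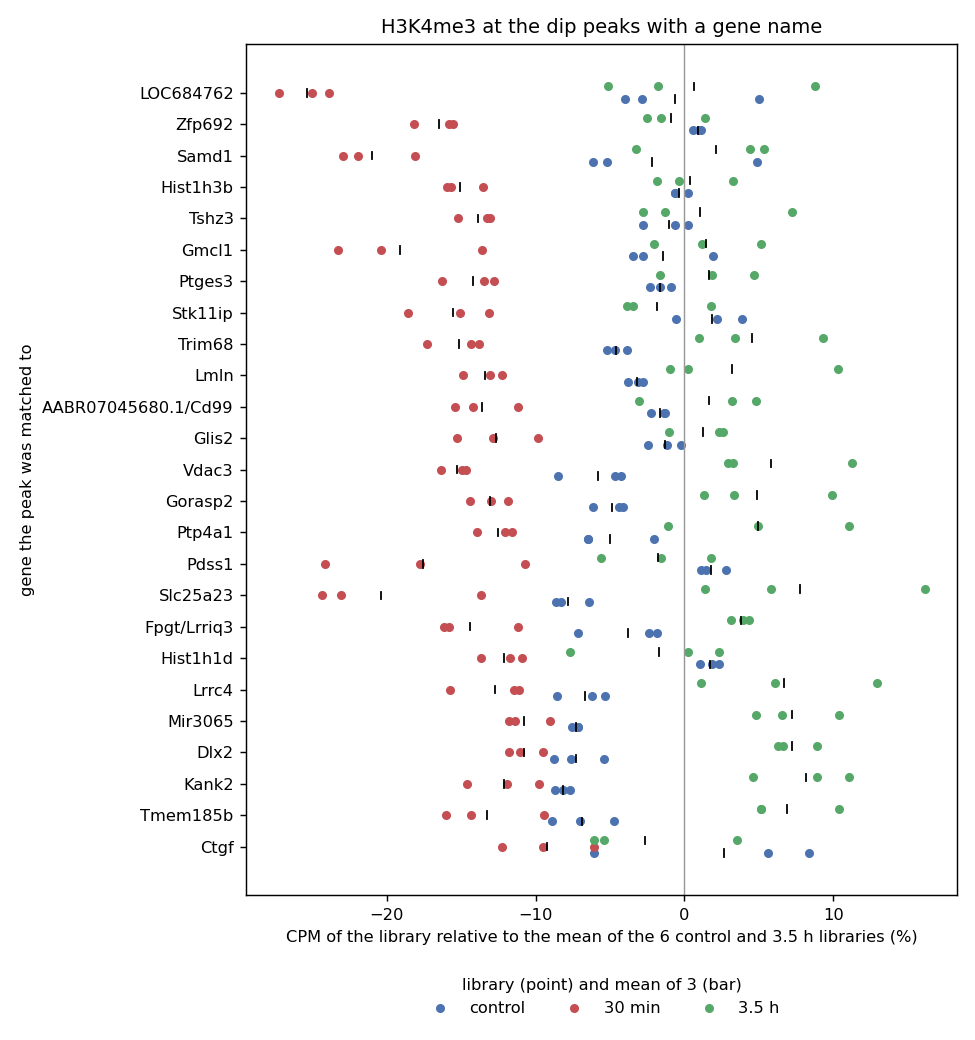
H3K4me3 level of each library at the 25 dip peaks with a gene name, as percent difference from the mean of the 6 control and 3.5 h libraries at that peak, with a bar at the mean of 3 libraries. Genes are ordered by gap. The 30 min points lie left of the other points in each row, as the rule requires, with room to spare at LOC684762 and almost none at Ctgf.

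The 5 dip peaks with the most reads were 7.67 to 12.9 kb wide, and their levels at 30 min were 4.52% to 10.8% lower than in the other libraries. Peak_8371 (chr10:109189520-109202389), matched to Mir3065, was the widest of all dip peaks at 12870 bp. It had 435, 433 and 435 CPM in control, 413, 415 and 426 CPM at 30 min, and 517, 499 and 491 CPM at 3.5 h, and was 10.8% lower at 30 min. The others were Peak_8960 (4.52% lower at 30 min), Peak_2071 (8.01%), Peak_13378 (6.16%) and Peak_8377 (9.08%). The narrowest dip peak, Peak_8151 (chr10:75422459-75422778), was 320 bp wide, with 5.74, 5.82 and 5.73 CPM in control, 5.19, 5.41 and 5.57 CPM at 30 min, and 5.74, 6.24 and 6.25 CPM at 3.5 h. In all, 45 dip peaks fell into 22 groups within 5 kb of each other, 21 of them pairs. The pair with the shortest span, Peak_11860 and Peak_5680 on chromosome 1, covered 2.19 kb and dipped by 8.80% and 9.78%. The pair Peak_14014 and Peak_7185 on chromosome 8 spanned 2.22 kb and dipped by 7.72% and 6.39%. In a further pair LOC684762 stood next to Peak_4202, which dipped by 10.5%.

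Many dip peaks were near the edge of the rule. The median gap was 0.02 on the log2 scale, the gap was over 0.1 at 25 dip peaks, and it was under 0.01 at 444. Just inside the rule, Peak_8091 had 83.9, 86.5 and 85.4 CPM at 30 min with a lowest other library of 86.5 CPM, and Peak_4381 had 68.1, 67.2 and 67.4 CPM with a lowest other library of 68.1 CPM. The other pair just inside were Peak_6284 and Peak_11689, with 30 min means of 135 and 59.6 CPM. Just outside, Peak_15300 had 84.8, 86.7 and 86.4 CPM at 30 min with a lowest other library of 86.7 CPM, and Peak_11006 had 92.0, 94.3 and 93.1 CPM with a lowest of 94.3 CPM; Peak_6483 and Peak_2641, with 30 min means of 164 and 113 CPM, were the other pair. On the 30 min side of this edge, replicate 2 was the highest of its condition at 63.3% of dip peaks. The other side was spread over several libraries. The lowest of the other 6 was 3.5 h replicate 1 at 28.5% and control replicate 3 at 27.6%. Control replicates 1 and 2 were the lowest at 17.6% and 17.9%.

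The same separation was counted for the other labelled conditions. The 30 min libraries were all above the other 6 at 9.68% of peaks (1500 of 15492), close to the share of dip peaks. Control libraries were all below the others at 6.07% and all above at 3.69%, and 3.5 h libraries were all below at 17.2% and all above at 15.5%. The dip was thus neither the most nor the least frequent of these 6 patterns.

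In edgeR's quasi-likelihood test over 16364 peaks, 37 dip peaks (2.26%) were called lower at 30 min than in control at an adjusted p-value under 0.05, beside 0.281% of all peaks called lower and 0.532% called higher. Unadjusted p-values are not counted for this comparison, since their share over all peaks was not computed. Between 30 min and 3.5 h, 1197 dip peaks (73.0%) were called higher at the later time, beside 17.9% of all peaks called higher and 23.3% lower. Without 3.5 h replicate 3, 774 dip peaks were called higher, beside 11.4% of all peaks. Both comparisons use the values that chose the peaks, and nothing is read from these counts. The first count moved with the 3.5 h libraries, which share in the estimate of spread. It was 430, 14 and 575 without replicates 1, 2 and 3 of that condition, beside 3.56%, 0.0856% and 4.72% of all peaks. Without any one of the other libraries it was 1 to 9, beside 0.00611% to 0.0611%. When only control and 30 min libraries were fitted it was 725, beside 6.53%.

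At 3.5 h the level at most dip peaks overlapped with that of control. The 3 later libraries were interspersed with the 3 control libraries at 1150 dip peaks (70.2%), beside 51.3% of all peaks. The later libraries were all above control at 451 dip peaks (27.5%) and all below at 38 (2.32%), beside 26.3% and 22.4% of all peaks. The rule holds both conditions above the 30 min level, which limits how far either can fall below the other. edgeR called 129 dip peaks (7.87%) higher at 3.5 h than in control and 3 (0.183%) lower, beside 13.7% and 17.8% of all peaks tested. The median log2 fold change was 0.03 over dip peaks, with 10% of them below -0.02 and 10% above 0.08, and 0.00 over all peaks. The count of higher calls was 355 without 3.5 h replicate 1, 79 without replicate 2 and 45 without replicate 3, and 53, 59 and 76 without control replicates 1, 2 and 3. Of all peaks, 6.63% to 19.2% were called higher without a single library. Without 3.5 h replicate 1 the 355 of 1639 dip peaks stood beside 19.2%, so dip peaks were not called higher less often there. Without any other single library they were. The count of lower calls was 0 to 10 without a single library, beside 10.4% to 23.3% of all peaks.

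**Figure D3:**
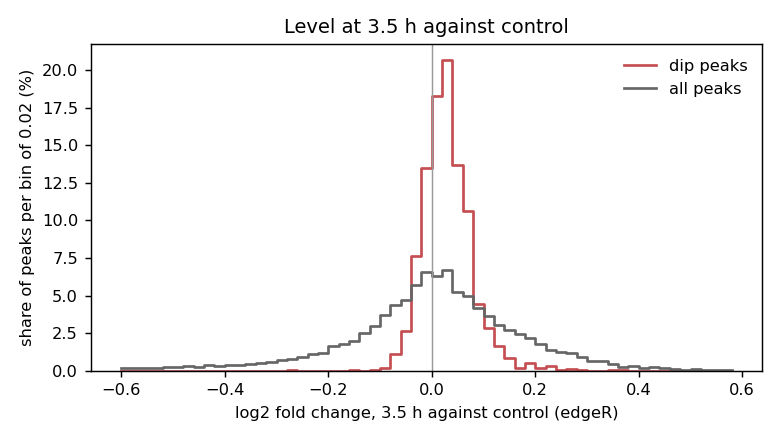
Distribution of the edgeR log2 fold change of 3.5 h against control for the 1639 dip peaks and for all 15492 peaks on chromosomes 1 to 20 with a mean count of 50 or more, as percent of peaks per bin. The dip peaks form a narrower distribution, with a median of 0.03.

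Of the 25 named peaks, 8 were among those called higher, beside 7.87% of all dip peaks and 13.7% of all peaks tested. None was among those called lower, and of the 25, 20 lay above control and 5 below. All 8 are in the study's list of genes that increased from 30 min to 3.5 h in these same libraries. That choice favours levels above control, so nothing is read from these counts. Kank2 was 17.1% above control at 3.5 h (log2 fold change 0.23 ± 0.03 SE, edgeR adjusted p = 0.000155), with 208, 204 and 196 CPM against 172, 171 and 173 CPM. Dlx2 was 14.7% above control, with 283, 284 and 290 CPM against 246, 252 and 243 CPM (edgeR adjusted p = 0.000136), and the Mir3065 peak 14.9% above control (edgeR adjusted p = 0.000130). In these 3 genes the later libraries were higher than each control library, and the 30 min level lay only just under control. Tmem185b was 14.0% above control, Lrrc4 13.4% and Vdac3 11.4% (edgeR adjusted p = 0.00135, 0.00457 and 0.00531). Slc25a23 was 16.0% above control and Ptp4a1 9.57% (edgeR adjusted p = 0.0231 and 0.0479), and both lost the call without single libraries: Slc25a23 without control replicate 1 or 2 or 3.5 h replicate 3 (edgeR adjusted p = 0.0786, 0.0708 and 0.101), and Ptp4a1 without any one of the 3 control libraries, 30 min replicate 1 or 2, or 3.5 h replicate 2 or 3 (up to 0.247). Both also lost it with loess offsets (edgeR adjusted p = 0.0629 and 0.0925), with DESeq2 (adjusted p = 0.0578 and 0.172), and with control replicates 1 and 2 averaged as 1 library (edgeR adjusted p = 0.0730 and 0.0939), and Ptp4a1 lost it when only control and 3.5 h libraries were fitted (edgeR adjusted p = 0.0717). Zfp692 (log2 fold change -0.04 ± 0.03 SE), Hist1h3b (0.00 ± 0.05) and Samd1 (0.05 ± 0.07) did not pass the test (edgeR adjusted p = 0.422, 0.991 and 0.614).

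The called changes from control at dip peaks were of modest size. Peak_5056 (chr20:7920614-7921984) had 9.52, 10.1 and 10.8 CPM in control and 14.7, 12.3 and 12.8 CPM at 3.5 h, a log2 fold change of 0.38 ± 0.10 SE (edgeR adjusted p = 0.0144). Peak_4063 (chr16:81544718-81545212) followed with 0.35 ± 0.10 SE (edgeR adjusted p = 0.0167) and Peak_4994 (chr20:3554246-3556552) with 0.29 ± 0.04 SE (edgeR adjusted p = 0.000350). Of the 3 called lower, Peak_2016 was 5.63% below control, Peak_8153 4.46% and Peak_15366 4.15% (edgeR adjusted p = 0.0202, 0.0391 and 0.0289). Peak_4994 kept its call under each of its 18 alternatives. Peak_5056 lost it without control replicate 1 or 2 (edgeR adjusted p = 0.0680 and 0.0528), and Peak_4063 without control replicate 2 (0.0723). Peak_2016 lost it without control replicate 1 or 3 or 3.5 h replicate 2 (up to 0.125), Peak_15366 without any one control library, 30 min replicate 1 or 2 or 3.5 h replicate 2 (up to 0.130), and Peak_8153 without any one control or 30 min library or 3.5 h replicate 2 or 3 (up to 0.107). With DESeq2, Peak_4063, Peak_15366 and Peak_8153 lost the call (adjusted p = 0.0695, 0.116 and 0.207). With loess offsets Peak_2016, Peak_15366 and Peak_8153 lost it (edgeR adjusted p = 0.0957, 0.156 and 0.0976), as they did with all reads as library size (0.831, 0.950 and 0.999), and Peak_8153 lost it without TMM (0.0843). Peak_5056, Peak_2016, Peak_15366 and Peak_8153 lost it with control replicates 1 and 2 averaged (edgeR adjusted p = 0.0567, 0.0518, 0.0906 and 0.0808), and these 4 and Peak_4063 had an adjusted p-value over 0.01.

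As a description, the rule was also applied with the libraries of 1 replicate number held out. When the rule was applied to the 6 libraries of replicate numbers 2 and 3, 2514 peaks were chosen, and at 85.4% of them replicate 1 at 30 min was below replicate 1 of both other conditions, against 32.8% of all peaks. The shares were 79.2% against 32.1% with number 2 held out, and 79.7% against 30.4% with number 3 held out, giving 81.4% ± 3.46 against 31.8% ± 1.25 (SD, n = 3). Among peaks in the top decile of reads per kb, the held-out shares were 95.8%, 81.6% and 93.4%, and those of all peaks in that decile 80.7%, 65.2% and 81.5%. Below the median density the shares were 55.7%, 75.8% and 44.3%, against 15.1%, 22.0% and 9.75%. The held-out libraries were thus lowest at 30 min more often at chosen peaks in each comparison, and by less in the top decile. Replicates may be technical, so a held-out library need not be independent of those that chose the peaks. These shares are therefore not read as replication of the dips. The held-out libraries shared the depth and outside-peak differences of their condition, and no test was made over peaks, which are not replicates. The 3 choices of peaks reused each other's libraries, so the SD is not a spread over independent replicates.

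**Figure D4:**
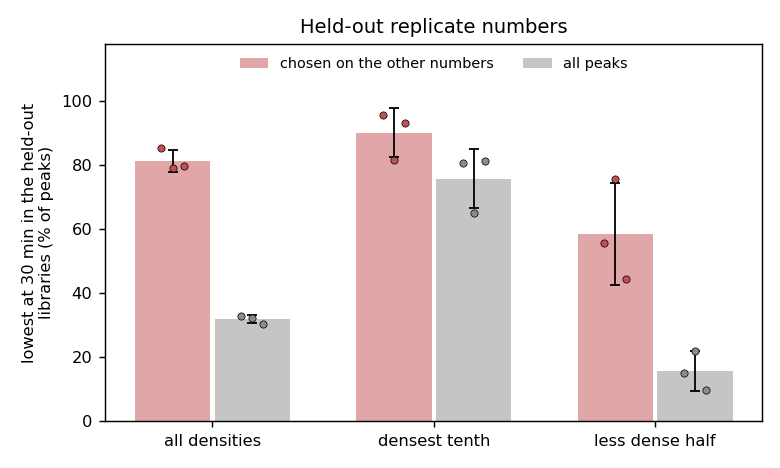
Share of peaks at which the held-out 30 min library was the lowest of the 3 held-out libraries, in percent, for peaks chosen on the other 2 replicate numbers (red) and for all peaks (grey), over all densities, in the decile with the most reads per kb and below the median. Points are the 3 held-out numbers and bars their mean ± SD, over choices of peaks that shared libraries. Over all densities the mean was 81.4% against 31.8%.

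Dip peaks were dense. The median dip peak had 51.2 CPM per kb in control, against 32.6 over all 15492 peaks and 16.4 over the 1500 peaks with the highest levels at 30 min. It was 1845 bp wide, against 1572 bp, and held a mean of 1401 reads per library, against 808. By deciles of reads per kb over the 9 libraries, the share of dip peaks was 0.323% in the lowest decile, 8.39% in the sixth, 23.2% in the ninth and 40.5% in the highest, while peaks highest at 30 min fell from 24.5% to 0.323%. All peaks followed the same gradient: their median log2 level at 30 min relative to the other libraries went from 0.23 in the lowest decile to -0.07 in the highest. By width the share of dip peaks ranged only from 3.85% in the narrowest decile to 15.6% in the eighth. Because duplicates were removed from single reads, each position and strand keeps at most 1 read, and the median dip peak had 38.3% of its possible read starts filled in a library of average depth, against 24.6% over all peaks. Deeper libraries fill such peaks more, and the part of this in the dips was not tested. The named peaks were less extreme, with a median of 38.8 CPM per kb in control, 2 in the top decile and 5 below the median. Dip peaks below the median density numbered 115 (7.02%) and had a median dip of 8.14%, against 6.46% for the 627 in the top decile.

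**Figure D5:**
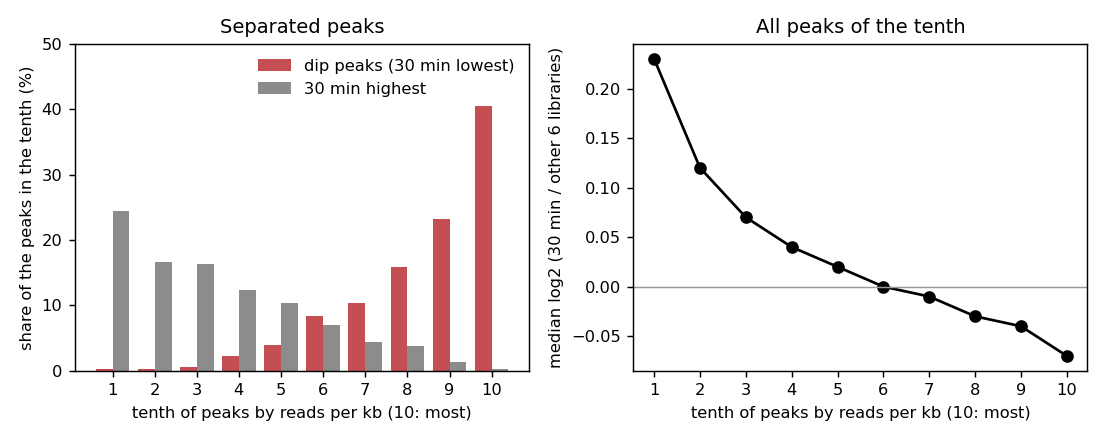
Left, percent of the peaks in each decile of reads per kb that were dip peaks (red) or had all 30 min libraries above the other 6 (grey). Right, median log2 ratio of 30 min over the other 6 libraries for all peaks of the decile, on an axis that spans 0.23 to -0.07. The share of dip peaks rose from 0.323% to 40.5% as the share with the highest 30 min level went from 24.5% to 0.323%.

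Dip peaks were found on each of chromosomes 1 to 20, from 8.91% of peaks on chromosome 7 to 14.3% on chromosome 17. They lay somewhat further from their nearest peak than peaks in general (median 25.3 kb against 21.2 kb), and 327 of them had a peak within 5 kb, as did 3596 of all 15492 peaks. At least 1 of the adjacent peaks, on either side, was a dip peak for 21.5% of dip peaks and for 19.4% of all peaks.

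In input DNA the conditions overlapped at dip peaks. Dip peaks took 11.9% ± 0.540 (SD, n = 3) of the input reads in peaks at 30 min and 11.7% ± 0.466 (SD, n = 6) in the other conditions (exact permutation test over libraries, two-sided, p = 0.714, where 0.0238 is the lowest value this design allows). The shares were 11.5%, 11.6% and 12.5% at 30 min, 11.3%, 11.3% and 12.1% in control, and 11.7%, 12.5% and 11.6% at 3.5 h, with no condition apart from the others. Input was shallow, with 27344 to 835518 reads in peaks and a median of 1 to 56 reads per dip peak, and replicate 3 of control and of 30 min held most of it. With these counts, edgeR could be fitted to 3320 peaks, 438 of them dip peaks, and called 0 in any comparison. At an unadjusted p-value under 0.05 were 0 dip peaks and 1 of all 3320 peaks for 30 min against control. For 3.5 h against 30 min it was 3 and 38, and for 3.5 h against control 5 and 39. A change of the size of the median dip was not detectable at this depth for a single peak.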

How the data were processed

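H3K4me3 ChIP and input DNA libraries, 9 of each, were sequenced as single reads. The authors trimmed reads with Trim Galore, aligned them to Rnor_6.0 with BWA and discarded reads that mapped to several places or were duplicates. Peaks came from MACS2 with the Irreproducible Discovery Rate and were merged, and HTSeq-count gave the reads in each. The deposited files hold these counts without normalization; the 18 single tables held the same counts as the combined table (0 values differed). From these counts CPM was computed as the count over the library's reads in peaks, and reads outside peaks were left out. Peaks were tested with edgeR 4.0.16 (R 4.3.3) by the quasi-likelihood test on all 9 H3K4me3 libraries, with TMM scaling, a filter on low counts by filterByExpr and Benjamini-Hochberg adjustment over 16364 peaks at 0.05, a script tested on simulated data. DESeq2 1.42.0, other scalings, a count minimum of 100, a replicate block and omission of single libraries were alternatives. Exact permutation tests used scipy 1.17.1. Standard errors are the log2 fold change over the square root of the F statistic. The biological coefficient of variation was 1.96% for H3K4me3 and 26.8% for input.

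Groups and replicate numbers came from the sample labels. The dip peaks, named peaks and lists were chosen with earlier results of these data known. Named peaks were the 10 with the widest gap, the 5 with the most reads, 4 on either side of the rule's edge, up to 3 with the largest called change at 3.5 h in each direction, the widest and narrowest, 4 groups within 5 kb, and up to 20 matched to a gene (within 0.2%, next peak 10 times further); the 5 matched dip peaks beyond these 20 were named as well, after their values were seen. Averages of the study's gene lists served only for that match. Pathway lists and cell type markers were not used, since no annotation of Rnor_6.0 was used here.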

Additional observations from a re-analysis of the deposited data

How the results depend on the processing

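Between 1317 and 1640 dip peaks were found with TMM, DESeq2 and loess scaling, of which 1407, 1498 and 1102 were among the 1639, and 1685 to 2409 when a library was left out. Scaled to all reads of a library, 3895 peaks met the rule and the median dip was -0.22; all peaks then had a median of -0.12, and relative to it the median dip was -0.10. The median dip was -0.08 with loess offsets. The held-out share was 75.3% with loess offsets and 86.3% with all reads, against 32.6% and 59.1% of all peaks. The input difference was 0.114 percentage points, and -0.197 to 0.284 without a library, the lowest without replicate 3 at 30 min. Calls higher at 3.5 h than in control numbered 41 at an adjusted p-value under 0.01, 200 without TMM and 254 with loess offsets. Beside them stood 5.65%, 16.1% and 15.3% of all peaks, and with loess offsets the share of dip peaks was close to that of all peaks. These calls numbered 60 with DESeq2, and 45 to 355 without a library, the latter beside 6.63% to 19.2%. Calls lower numbered 0 at 0.01, 0 with all reads, 1 with loess offsets and 1 with DESeq2, beside 9.51%, 8.08%, 17.8% and 12.7%. Without a library they numbered 0 to 10, beside 10.4% to 23.3%. Calls lower at 30 min than in control numbered 5 at 0.01 and 20 with all reads, beside 0.0306% and 0.202% of all peaks. They numbered 725 with only those conditions and 1 to 575 without a library, beside 6.53% and 0.00611% to 4.72%. Calls higher at 3.5 h than at 30 min numbered 646 at 0.01 and 771 with DESeq2, beside 8.62% and 10.6%. Without a library they numbered 774 to 1281, beside 11.4% to 22.7%. With control replicates 1 and 2 averaged as 1 library, an alternative chosen after seeing the data, 1869 peaks met the rule. These 4 counts were then 54, 0, 2 and 1107, beside 7.01%, 11.5%, 0.0122% and 16.2% of all peaks. The cause of these changes was not tested. Deviations of same-numbered libraries from their condition means had correlations of -0.23 to 0.39, over 0.1 in 4 of 9 pairs. Libraries of different numbers gave -0.25 to 0.40, and a pairing was not tested. With a replicate block the 4 counts were 133, 3, 57 and 1178, beside 14.8%, 19.3%, 0.452% and 18.4% of all peaks. Of 252 values for 14 named peaks at 3.5 h against control, 194 kept their call, 57 lost it and 1 turned: Peak_15366 was 0.01 with all reads. Gene lists were limited by the lack of names at most peaks, and input by its depth.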
